A study of Mus musculus with 4 samples.

Results

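E2F1 occupancy in mouse embryonic stem cells (ESCs) was examined at the peaks whose centre lies 200 to 1000 bp downstream, in the direction of transcription, of the nearest annotated transcript start. Of 4523 deposited peaks, 711 met this rule on the GENCODE M1 annotation of the mm9 genome, and 3207 were centred within 200 bp of a start and served for comparison. A further 198 peaks lay 200 to 1000 bp upstream of a start, 393 lay farther away, and 14 on unplaced contigs could not be placed. The rule used position alone and no measured value. The 4 samples were ChIP-seq libraries made with an E2F1 antibody, 2 from ESCs kept in serum medium and 2 from ESCs kept in 2i, that is with CHIR99021, which inhibits GSK3, and PD0325901, which blocks MEK and thereby ERK signaling. Both media contained LIF, the cytokine that supports self-renewal. The paper's ChIP methods name the cells as serum and 2i ESCs and do not give their time in the medium. The ESC line, and thus whether serum and 2i cells were the same line, is not given with these libraries, and RNA was not analysed here, so the cell type could not be checked against marker levels. The values are the authors' reads per peak after scaling by 1 factor per sample, called normalized counts below.

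E2F1 is the founding member of the E2F family of transcription factors. It binds DNA as a dimer with a DP protein at GC-rich sites near gene starts, and RB family proteins hold it in check until cyclin-dependent kinases phosphorylate them late in G1. Its best known targets encode replication enzymes, nucleotide synthesis enzymes and cell-cycle regulators. The bases just inside a transcribed gene hold the 5′UTR, the beginning of the coding sequence and the beginning of the first intron, and in mammals they are often still part of the CpG island that surrounds the start.

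The 711 downstream peaks lay at the starts of 707 genes on 20 chromosomes, with a median distance of 296 bp from the start and an interquartile range from 242 to 424 bp. Most sat close to the inner limit, with 361 peaks at 200 to 299 bp, 148 at 300 to 399 bp, 133 at 400 to 599 bp and 69 at 600 to 1000 bp. Their centres fell in an intron at 292 peaks (41.1%), in a coding exon at 209 (29.4%) and in a 5′UTR at 195 (27.4%). The remaining centres lay in noncoding exons at 11 peaks, in 3′UTRs at 2 and between genes at 2. Relative to the transcript with the nearest start, 378 centres lay in exon 1 and 300 in intron 1. Among the peaks within 200 bp of a start, by comparison, 55.3% of centres lay in a 5′UTR, 12.9% in a coding exon and 14.6% in an intron. At 310 of the 619 downstream peaks assigned to a coding transcript, the centre lay past the first base of the start codon.

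Peak intervals were long enough for many downstream peaks to touch the start itself. Their median length was 514 bp against 482 bp at the starts, and the interval of 278 downstream peaks (39.1%) covered the start, against 99.0% of the peaks centred within 200 bp. The 278 peaks that covered the start were stronger, with a median mean signal of 121 normalized counts, than the 433 that ended short of it, at 46.9. A peak centred at least 200 bp away can cover the start only if its interval is long, and counts are summed over the interval. The median lengths were 678 and 443 bp, so this split also selects on length and signal. Only 43 downstream peaks belonged to a gene that had another peak centred within 200 bp of any of its starts, so most genes in this class had no second peak at a start. At the inner limit of the rule, the peak at Eid2 was centred 200 bp from the start with a mean signal in serum of 119 and in 2i of 141, and the first peak outside, at Kdm3b at 199 bp, had 99.9 and 178. At the outer limit, the peak at Chst2 at 1000 bp had 19.0 and 20.5, and the first peak beyond, at Cadm1 at 1010 bp, had 28.6 and 30.9.

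The sequence under the peaks was searched on both strands of mm9 for the E2F words TTTCCCGC, TTTCGCGC, TTTGCCGC and TTTGGCGC, and for a shorter E2F core, GGCGCGA or GGCGGGA. A 200 bp window about the peak centre held an E2F word at 13 of the 711 downstream peaks (1.83%, 95% Clopper-Pearson interval over peaks 0.977% to 3.11%) and at 1.87% of the peaks within 200 bp of a start. The full words were thus rare in both classes, and their shares did not differ beyond counting error. Windows of 200 bp at all protein-coding starts of the annotation held a word at 1.94% when centred on the start, 1.33% at 200 bp downstream and 1.41% at 400 bp. The share of the peaks at starts was thus not above that of gene starts in general, and the downstream interval includes all of these values. The core was found at 193 downstream peaks (27.1%, interval 23.9% to 30.6%), below the 34.4% (32.8% to 36.1%) of the peaks at starts. Windows of the same length at all protein-coding starts of the annotation held the core at 13.7% when centred on the start, 10.7% at 200 bp downstream, 7.11% at 400 bp and 4.46% at 600 bp. The downstream peaks held the core more often than the annotated gene starts at the same distance, and their base composition also differed. The median GC content was 78.0% in the windows of downstream peaks and 77.5% at the peaks on starts, against 58.0% at 200 bp from all coding starts, and the part of GC content in the core's share was not tested. The words and the core overlap in part, since GGCGGGA can run into the reverse complement of TTTCCCGC.

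**Figure D1:**
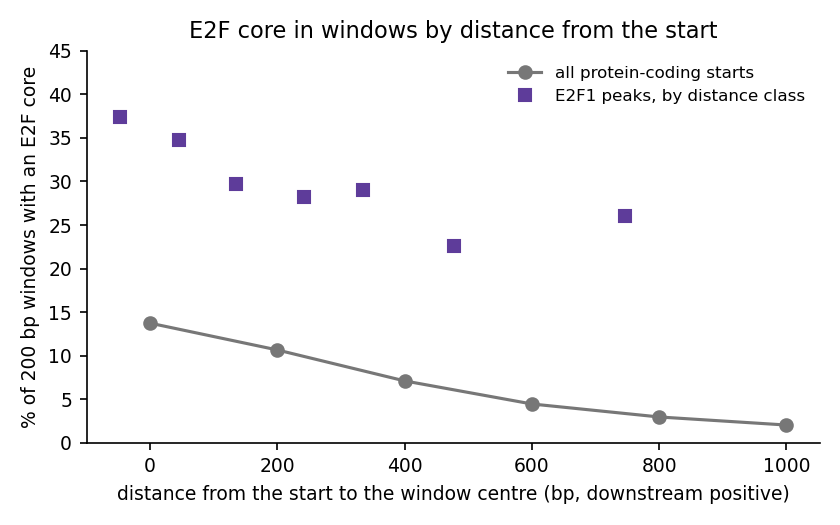
Share of 200 bp windows that hold an E2F core (vertical axis, percent) against the distance of the window from the transcript start (horizontal axis, bp). Squares are E2F1 peaks in 7 distance classes at their median distance and circles are all 45982 protein-coding starts, and the peaks go from 37.4% just upstream of the start to 22.6% at 400 to 599 bp and 26.1% at 600 to 1000 bp while the share at all starts falls from 13.7% to 2.04%.

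Other promoter words were also less common in the downstream peaks than over all peaks at the starts, though no intervals were computed for these shares. The CCAAT box of NFY was found at 3.23% of downstream windows against 7.86%, the ETS word CCGGAAGT at 0.703% against 1.96%, the YY1 word AAGATGGC at 1.41% against 3.15% and the NRF1 word GCGCATGC at 1.13% against 2.03%. The E-box CACGTG stood at 3.09% against 4.40%. No downstream window held the CRE palindrome TGACGTCA, which allows a share of up to 0.422%, and 0.935% of the windows at starts did. The GC box GGGCGG, bound by SP and KLF factors, was the most frequent word in both classes, at 74.1% against 79.9%. Low shares were not particular to the downstream peaks. The peaks at starts centred 100 to 199 bp downstream held ETS at 0.625%, NRF1 at 0.75%, the E-box at 2.00% and the GC box at 69.1%, each below the downstream share. Their shares of NFY (4.75%), YY1 (2.75%) and CRE (0.125%) were above it. Their E2F core share was 29.8%, within the interval of the downstream share. No match says only that these letters are not in the window.

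The downstream peaks with the most E2F words in their interval were at Smc6, Spint2 and C77370, with 2 each, and their sites are shown because a full word is so rare in this class. Smc6 encodes a subunit of the SMC5/6 complex, which acts in DNA repair, and Spint2 encodes a membrane-bound inhibitor of serine proteases. Each site is given on the strand of its gene, 5′ to 3′, from mm9, with the E2F word in capitals.
Smc6, exonic site 171 bp from the start, chr12:11272848-11272877, plus strand: tgaccagagcgGCGCGAAAgcccgggagcg
Smc6, intronic site 571 bp from the start, chr12:11273203-11273322, plus strand: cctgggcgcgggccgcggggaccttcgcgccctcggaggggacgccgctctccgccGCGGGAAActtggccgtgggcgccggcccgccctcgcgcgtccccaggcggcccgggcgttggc
Spint2, exonic site 164 bp from the start, chr7:30066817-30066846, minus strand: aggcgtcgcacGCGCCAAAagccagaaaaa
Spint2, exonic site 278 bp from the start, chr7:30066703-30066732, minus strand: cggccgtgggcTTTCCCGCacctgctcgcg
C77370, intronic site 1059 bp from the start, chrX:101395337-101395456, minus strand: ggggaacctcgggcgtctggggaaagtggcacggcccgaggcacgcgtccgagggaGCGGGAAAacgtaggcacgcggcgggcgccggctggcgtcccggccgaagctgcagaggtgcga
C77370, intronic site 1323 bp from the start, chrX:101395073-101395192, minus strand: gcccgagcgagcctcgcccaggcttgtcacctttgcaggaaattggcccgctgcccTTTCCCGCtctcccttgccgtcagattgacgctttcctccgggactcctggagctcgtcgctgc
The Smc6 peak had normalized counts of 117 and 84.8 in serum and 71.1 and 97.0 in 2i, which overlap. The Spint2 peak had 76.7 and 91.5 in serum against 47.6 and 52.2 in 2i, a log2 fold change of 0.74 that was under the threshold for a call. The C77370 peak went the other way, with 59.2 and 46.7 in serum against 86.2 and 173 in 2i, and was called with a log2 fold change of -1.20 that was -0.70 and no call without 2i replicate 2. So the 3 peaks richest in E2F words did not share a direction.

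In every sample the downstream peaks had a higher median signal than the peaks within 200 bp of a start. In serum the medians were 71.4 against 62.7 normalized counts in replicate 1 and 69.6 against 62.9 in replicate 2, and in 2i they were 66.6 against 66.1 in replicate 1 and 67.8 against 62.6 in replicate 2. The ratio of the medians was thus 1.14 and 1.11 in serum and 1.01 and 1.08 in 2i, with no overlap between the conditions. The order turned for the 433 downstream peaks that ended short of the start, whose medians were 47.0 and 49.6 in serum and 44.8 and 44.9 in 2i, below those at starts in all 4 samples. These 433 peaks were also shorter, with a median length of 443 bp against 482 bp at the starts, and the part of length was not tested. With 2 samples per condition, a two-sided exact permutation test cannot give a p below 0.333, so none is given for the order of the conditions. Divided by peak length, the mean ratio over the samples was 0.994 in place of 1.08, so the higher level was not seen per unit of length. Of the downstream peaks, 32.1% belonged to the strongest of 4 equal groups of all peaks by mean signal, against 24.7% of the peaks at starts.

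**Figure D2:**
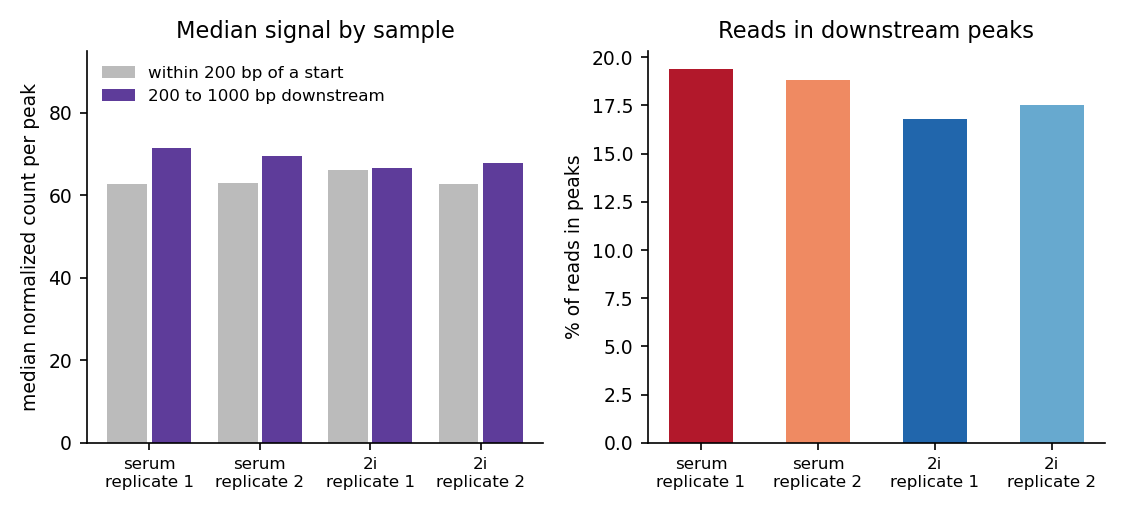
Left, median normalized count per peak (vertical axis) in each of the 4 samples, for the 3207 peaks within 200 bp of a start (grey) and the 711 downstream peaks (purple). Right, percent of all reads in peaks that fell in downstream peaks, which was 19.4% and 18.8% in the serum samples and 16.8% and 17.5% in the 2i samples.

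The share of all reads in peaks that fell in the downstream peaks gave the same order, with 19.4% and 18.8% in serum and 16.8% and 17.5% in 2i. Reads were inferred by dividing each value by the step between values in its sample. The smallest value was above 1 step in 3 of the samples, so the inferred reads describe depth only and entered no test. Depth differed between the samples, from an inferred 248878 reads in peaks in serum replicate 1 to 710519 in 2i replicate 1. The median downstream peak held 41 and 73 reads in the serum samples and 119 and 65 in the 2i samples, so counting error was largest in serum replicate 1. In that library 1 downstream peak was listed at exactly 2, a value that is no whole multiple of the step there, and 4 downstream peaks had under 3 inferred reads in at least 1 sample.

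Each peak was compared between serum and 2i with limma on log2(normalized count + 1), fitted over all 4523 peaks, and a call required a log2 fold change past 1 and an unadjusted p under 0.05. Over the whole table, 4.82% of peaks were called with serum higher and 5.48% with 2i higher. Among the downstream peaks, 52 (7.31%, 95% interval 5.51% to 9.48%) were called with serum higher and 22 (3.09%, 1.95% to 4.65%) with 2i higher. The 393 peaks farther from a start had 51 (13.0%) and 20 (5.09%), with a median log2 fold change of 0.15. The 198 upstream peaks had 9 (4.55%) in each direction. A lean toward serum was thus not particular to the downstream peaks. The peaks within 200 bp of a start had more calls toward 2i, with 104 (3.24%) called toward serum and 197 (6.14%) toward 2i. The median log2 fold change was 0.08 over the downstream peaks, -0.07 over the peaks at starts and -0.03 over all peaks, and the first of these turned to -0.00631 with the same total in each sample. The balance among the called downstream peaks depended on the scaling, with 42 toward serum and 33 toward 2i after every sample was rescaled to the same total, and with 46 and 12 under cyclic loess normalization. Over all peaks, 178 and 313 were called with the same total and 232 and 166 under cyclic loess, so the background moved as well. At starts, calls toward 2i outnumbered those toward serum under both scalings, by 243 to 80 and by 135 to 110. Among peaks with a mean of at least 50 normalized counts, however, the starts had 58 toward serum and 53 toward 2i, against 37 and 7 downstream, and without 2i replicate 1 they had 118 and 97. Peaks are not replicates, so no p is given for the difference between the classes.

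With the limma p adjusted by the Benjamini-Hochberg procedure over the whole table, 17 downstream peaks (2.39%) passed, all 17 higher in serum, against 1.15% of all peaks. The peaks at starts then had 24 (0.748%) toward serum and 13 (0.405%) toward 2i, so their order there was not that of the unadjusted calls. In the other direction, 0 downstream peaks passed with limma after adjustment, against 0.31% of all peaks, and 38 had an unadjusted p under 0.05 with a higher mean in 2i. In each of 4 other settings 1 passed, namely the same total, cyclic loess normalization, a pseudocount of 8 and a minimum mean of 50. Of all peaks, 0.553%, 0.376%, 0.442% and 0.403% then passed toward 2i. With a replicate block, 53 downstream peaks passed, 43 (6.05%) toward serum and 10 (1.41%) toward 2i, where 3.36% and 2.63% of all peaks did, with Sox2, Mcl1, Srf and E2f2 among the former and Lonrf1, Brms1l, Eea1, C77370 and Atp6v1h among the latter. The adjusted count rests on every library. It was 0 without serum replicate 1, 6 without serum replicate 2, 4 without 2i replicate 1 and 2 without 2i replicate 2, where a condition has a single sample whose spread is taken from the other. It was also 0 without the trend of variance on signal. The 22 calls higher in 2i were not a fixed set either, since both their number and their members changed when single libraries were left out. Both serum values were above both 2i values at 234 downstream peaks (32.9%), and below them at 141 (19.8%), against 24.9% and 24.4% of all peaks. These shares were 34.6% and 18.3% among the 393 peaks farther from a start, and 28.8% and 18.2% among the 198 upstream peaks.

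**Figure D3:**
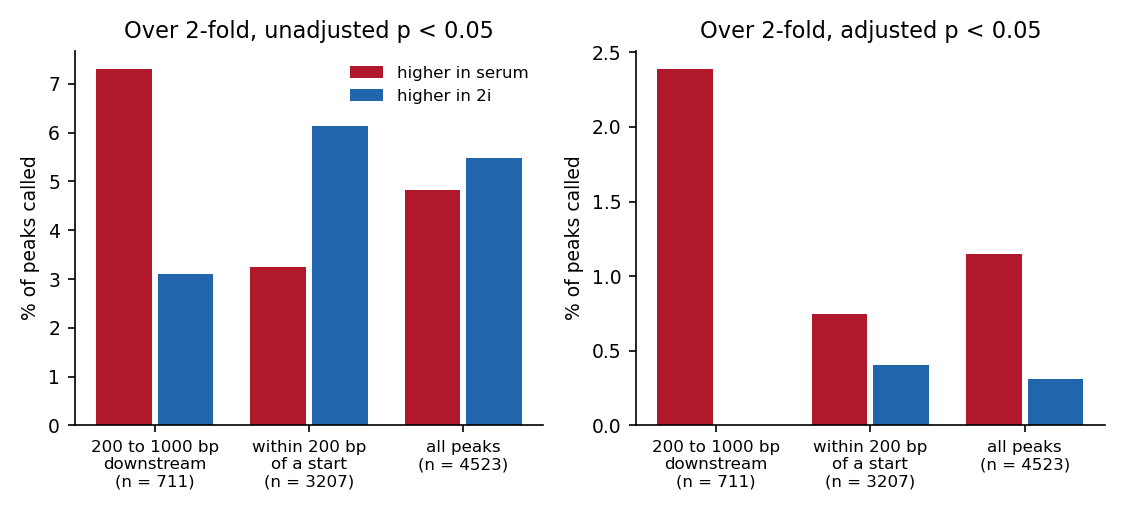
Percent of peaks called between serum and 2i (vertical axis) among the 711 downstream peaks, the 3207 peaks within 200 bp of a start and all 4523 peaks, at an unadjusted p (left) and a Benjamini-Hochberg adjusted p (right) under 0.05 from limma, each with a change past 2-fold. At an unadjusted p, downstream peaks were called toward serum at 7.31% and toward 2i at 3.09%, and at the starts more peaks were called toward 2i, which was not so among peaks with a mean of at least 50 or without 2i replicate 1.

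Fold changes varied with signal strength in both classes. When all peaks were divided into 4 equal groups by mean signal, the median log2 fold change of downstream peaks went from -0.22 in the weakest group through 0.09 and 0.07 to 0.23 in the strongest. The peaks at starts went from -0.33 through -0.10 and -0.05 to 0.07. Within each group the downstream median was thus higher, by 0.11 to 0.19, and the interquartile ranges of the 2 classes overlapped widely in each. In the strongest group, 26 of 228 downstream peaks were called toward serum and 1 toward 2i, against 58 and 15 of all 1131 peaks of that group and 25 and 14 of the 793 at starts. In the weakest group, 9 and 11 of 167 downstream peaks were called, against 62 and 132 of all 1131.

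**Figure D4:**
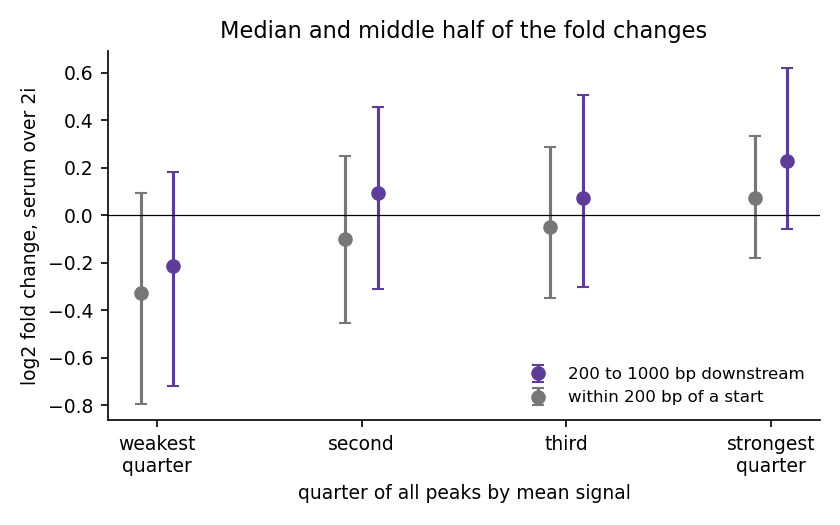
Median log2 fold change of serum over 2i (points) and its interquartile range (bars from the lower to the upper quartile) on the vertical axis, for 4 equal groups of all peaks by mean signal on the horizontal axis. In each group the downstream peaks (purple) have a higher median than the peaks within 200 bp of a start (grey), from -0.22 against -0.33 in the weakest to 0.23 against 0.07 in the strongest.

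The difference between the classes in the median, but not in the share of calls toward serum, was smaller for the peaks most clearly separate from the start. Among the 433 downstream peaks whose interval ended short of the start, the median log2 fold change was 0.01, with 35 (8.08%) called toward serum and 18 (4.16%) toward 2i. Among the 278 that covered the start it was 0.12, with 17 (6.12%) and 4 (1.44%) called. The 433 peaks were also weaker, with a median mean signal of 46.9 against 121. Fold changes varied with signal, and the part of signal in this difference was not tested. When peaks that covered a start or shared a gene with a peak at a start were both left out, the 395 that remained had a median of -0.01. By position in the gene, the median was 0.14 for the 292 centres in introns, 0.03 for the 209 in coding exons and -0.03 for the 195 in 5′UTRs. By distance, it was 0.09 at 200 to 299 bp, 0.01 at 300 to 399 bp, 0.08 at 400 to 599 bp and 0.02 at 600 to 1000 bp, with no steady trend.

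Genes that held both a downstream peak and a peak at a start allow a comparison within the gene. There were 45 such pairs at 42 genes, some of them at separate annotated starts, since the centres of a pair lay up to 223985 bp apart and within 2000 bp in 29 pairs. The downstream peak was the stronger of the pair in 20 of 45, and its log2 fold change was the higher in 21 of 45. The median log2 fold change of the pair members was 0.08 for the downstream peaks and 0.09 for their partners at the start. The median difference within a pair, downstream minus start, was -0.04. Among the 29 close pairs, the downstream peak was the stronger in 12 and had the higher fold change in 11, with a median log2 difference of -0.10. Single genes still held peaks with unequal values. At Gse1, the peak 278 bp downstream had 122 and 107 normalized counts in serum against 45.9 and 32.3 in 2i, a log2 fold change of 1.54, while that of a peak at another start of the gene, 1221 bp away, was 0.51. At Tmem189, which encodes the desaturase of plasmalogen synthesis, the downstream peak had a log2 fold change of 1.23 and covered its own start, and a peak at another annotated start, 27847 bp away, had 0.41. At Rcc2, the log2 fold changes were 0.19 downstream and 0.30 at the peak 1036 bp away. The difference between the members of a pair was not tested.

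The 17 downstream peaks with an adjusted p under 0.05 had log2 fold changes from 1.18 to 2.41 and mean signals from 73.9 to 327. Their centres lay in introns at 6, in coding exons at 6, in 5′UTRs at 4 and in a 3′UTR at the remaining one, and 6 of their intervals covered the start. An E2F core was found in the 200 bp window of 4 of them and an E2F word in that of 1, at Tpt1. In all 17, both serum values exceeded both 2i values.

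**Figure D5:**
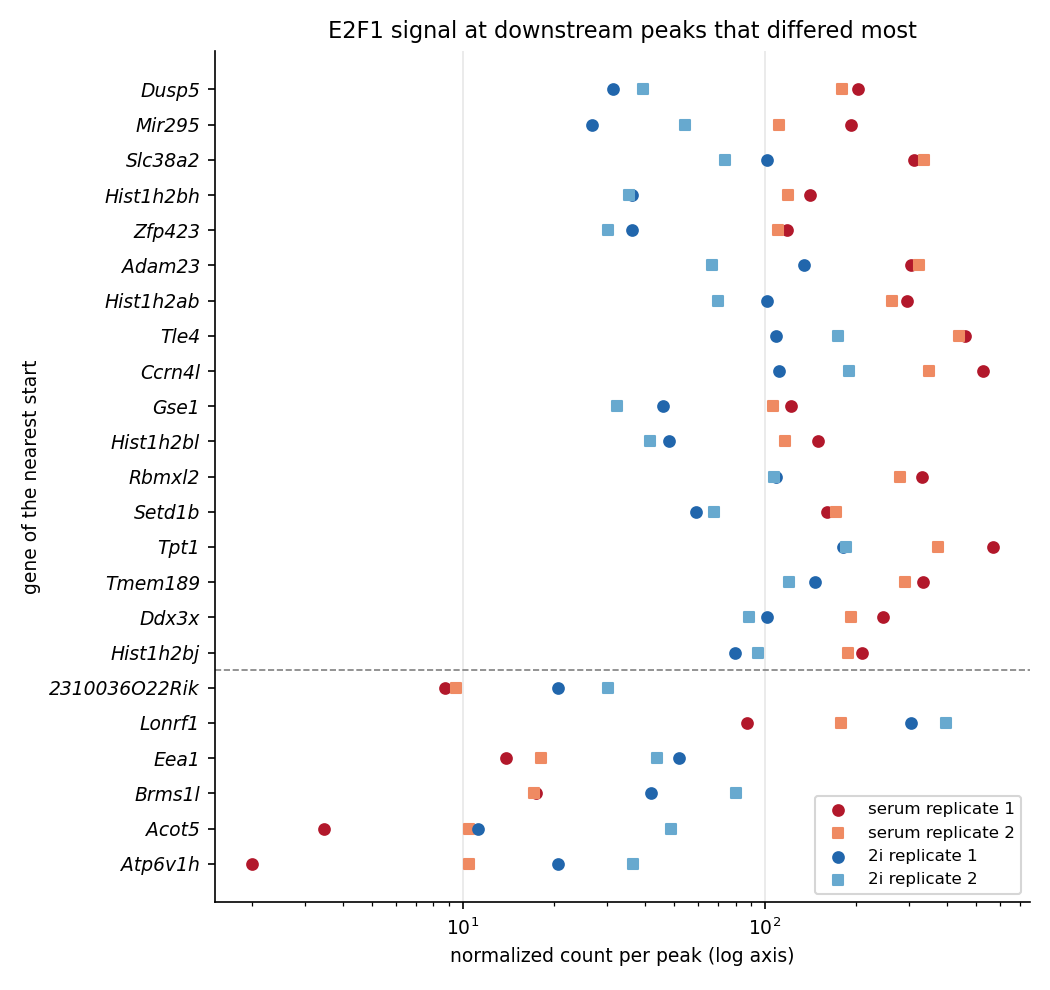
Normalized count (horizontal axis, log scale) in each of the 4 samples at the 17 downstream peaks with an adjusted p under 0.05 (above the dashed line) and at the 6 called peaks with the largest change toward 2i and no overlap of replicates (below it). At Dusp5 the serum samples stand at 204 and 180 and the 2i samples at 31.4 and 39.6, and the peaks higher in 2i, apart from Lonrf1, lie at lower counts.

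The largest difference was at Dusp5, which encodes a nuclear phosphatase that inactivates ERK and is itself induced by ERK signaling. The peak, chr19:53603505-53604107, was centred 207 bp into the gene, in the 5′UTR in exon 1, and covered the start. It held 204 and 180 normalized counts in the serum replicates and 31.4 and 39.6 in the 2i replicates, from an inferred 117, 189, 56 and 38 reads. The serum values were thus far above those in 2i, 192 ± 16.8 against 35.5 ± 5.86 (SD, n = 2 each), and the log2 fold change was 2.41 (limma adjusted p = 0.00597, SE 0.29). With each replicate left out in turn it stayed between 2.24 and 2.57.

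Slc38a2 encodes a sodium-coupled transporter of neutral amino acids. Its peak, chr15:96529223-96530045, was centred in intron 1, 495 bp from the start, and its interval ended short of the start. It held 312 and 336 in serum and 102 and 74.1 in 2i, with a log2 fold change of 1.89 (limma adjusted p = 0.00867, SE 0.26). The peak at Zfp423, chr8:90482744-90483172, was likewise in intron 1, 536 bp from the start. Zfp423 encodes a zinc finger transcription factor of mesenchymal and neural development. The peak held 118 and 111 in serum and 36.4 and 30.3 in 2i, with a log2 fold change of 1.76 (limma adjusted p = 0.024). In both peaks the replicates lay close together in each condition and the groups were well apart.

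The peak chr7:3221506-3221972 lay 965 bp from the start of Mir295, the last hairpin of the miR-290 to miR-295 cluster, whose microRNAs are abundant in ESCs. Its centre was past that hairpin, in the 3′UTR of Nlrp12, a gene annotated on the opposite strand. It held 193 and 112 in serum and 26.9 and 54.2 in 2i, with a log2 fold change of 1.91 (limma adjusted p = 0.0385, SE 0.39). Its standard error was the largest among the 17 peaks, and the log2 fold change stayed between 1.42 and 2.41 when any 1 replicate was left out. Since the annotated start is that of a processed hairpin, the distance does not measure how far the peak lies from the start of the primary transcript.

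Among the remaining peaks, Tle4, a Groucho-family corepressor, had 458 and 439 in serum and 109 and 174 in 2i at a peak in the 5′UTR, 525 bp from the start. Setd1b, a histone H3 lysine methyltransferase of active promoters, had 160 and 173 against 59.3 and 67.8 at a peak in intron 1. Ddx3x, an X-linked RNA helicase, had 246 and 194 against 101 and 88.7 at an intronic peak 737 bp from the start. Rbmxl2, a retrogene of an RNA-binding protein, had 331 and 280 against 109 and 107 within its coding exon. Their log2 fold changes were 1.70, 1.38, 1.19 and 1.49, and in each of the 4 the lower serum value was above the higher 2i value.

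Adam23, which encodes a cell-surface protein of the disintegrin family, had 305 and 325 in serum and 134 and 66.8 in 2i. Ccrn4l, the gene of the circadian protein nocturnin, had 526 and 351 against 111 and 190 at a peak in the 5′UTR, 593 bp from the start. Tpt1, which encodes the abundant translationally controlled tumour protein, had 568 and 374 against 181 and 186 at a peak centred in intron 1. The log2 fold changes were 1.72, 1.56 and 1.32. At these 3 genes the replicates of a condition lay farther apart than at Slc38a2 or Zfp423, but the conditions did not overlap.

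The sites of Tpt1, the 1 with a full word in its window, and of Tmem189, which held a core there, are given to show how the word and the core sit in GC-rich sequence. The other windows with a core were those of the histone genes Hist1h2bh, Hist1h2bl and Hist1h2bj. At Dusp5, Slc38a2 and Zfp423, the peaks with large changes, the window held no complete core, and the core nearest the centre lay 97, 156 and 110 bp from it on the side of the start. Capitals mark the word or core nearest to the peak centre, on the strand of the gene in mm9.
Tpt1, 210 bp from the start, chr14:76245357-76245386, plus strand: ccgagcccggcGCGGGAAAtggcgggcctt
Tmem189, 427 bp from the start, chr2:167514880-167514909, minus strand: cgggaggcggcGGCGGGAagcaggcgggcg
Dusp5, 110 bp from the start, chr19:53603695-53603724, plus strand: cgcgcggccccTCGCGCCgggctccgtttg
Slc38a2, 339 bp from the start, chr15:96529775-96529804, minus strand: gcggcgccggcGGCGGGAgcgggggcttgc
Zfp423, 426 bp from the start, chr8:90483053-90483082, minus strand: ggcccggcggaGGCGCGAgcaagcgaggag

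A group of downstream peaks lay at histone genes. Replication-dependent histone genes are short, have a single exon and are transcribed in S phase, so a point 200 to 350 bp from the start is within their coding sequence. In all, 18 downstream peaks belonged to genes of the Hist1 cluster on chromosome 13, 6 of them at H2B genes, 5 at H3, 4 at H2A, 2 at H1 and 1 at H4. All 18 had a positive log2 fold change, from 0.54 to 1.82 with a median of 0.91, under the scaling as deposited, where 47.8% of all peaks did. All 18 stayed positive under each other scaling and with any 1 replicate left out, where the lowest value was 0.11, without 2i replicate 2. Of the 18, 4 passed after adjustment, Hist1h2bh, Hist1h2ab, Hist1h2bl and Hist1h2bj, all toward serum, where 1.15% of all peaks passed. With limma at an unadjusted p under 0.05, 7 were called toward serum and 0 toward 2i, against 4.82% and 5.48% of all peaks. The calls became 12 without 2i replicate 1 and 4 without 2i replicate 2. They were chosen as a family after their values had been seen. Without them, 45 downstream peaks were called toward serum and 22 toward 2i, and the median log2 fold change was 0.06 in place of 0.08. The same family also had 15 peaks within 200 bp of a start, all with a positive log2 fold change and a median of 0.92.

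Hist1h2bh, a histone H2B gene, had 141 and 119 normalized counts in serum and 36.4 and 35.5 in 2i at chr13:23634780-23635203, centred 237 bp from the start. Its log2 fold change was 1.82 (limma adjusted p = 0.0173, SE 0.30). Hist1h2ab, a histone H2A gene, had 294 and 263 against 101 and 69.9. At the low end, Hist1h3h, a histone H3 gene, had 300 and 248 against 252 and 139, where the conditions overlapped. Median signals of the 18 peaks were 220 and 203 in the serum samples and 108 and 97.5 in the 2i samples. Of these peaks, 9 of 18 had a start on the opposite strand within 1000 bp of their centre, since many histone genes lie head to head. Reads could also be divided between near-identical copies, so values of single histone genes are uncertain.

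The 6 H2B members shared the same E2F core at nearly the same place, 237 to 303 bp from the start and within 32 bp of the peak centre. It lies in the coding sequence, which is close to identical between the copies, and the 30-base sites took 3 different forms over the 6 genes. Capitals mark the core, read on the strand of the gene in mm9.
Hist1h2bh, chr13:23634969-23634998, minus strand: cgggcgaggcgTCCCGCCtggcgcattaca
Hist1h2bj, chr13:22135322-22135351, plus strand: cgagcgaggcgTCCCGCCtggcgcattaca
Hist1h2bl, chr13:21807760-21807789, minus strand: cgagcgaggctTCCCGCCtggcgcattaca
The sites of Hist1h2bb and Hist1h2bk had the letters of Hist1h2bj, and that of Hist1h2bg those of Hist1h2bh. The log2 fold changes of these 6 genes nevertheless ran from 0.66 at Hist1h2bb to 1.82 at Hist1h2bh.

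Downstream peaks called higher in 2i were weaker, with a median mean signal of 36.3 against 107 for those called higher in serum. The largest difference was at Atp6v1h, which encodes a subunit of the vacuolar proton pump, with 2 and 10.5 in serum and 20.7 and 36.5 in 2i. The first of these is the value listed at exactly 2, which is no whole multiple of the step. The log2 fold change was -2.28, and -1.39 with no call under cyclic loess normalization. Acot5, an acyl-CoA thioesterase gene, had 3.48 and 10.5 against 11.2 and 49.0, from an inferred 2 and 11 reads in serum. Neither passed after adjustment in the fit to all 4 samples without a replicate block. With the block, Atp6v1h passed (limma adjusted p = 0.0166) and Acot5 did not (limma adjusted p = 0.0723). Leaving out any 1 replicate gave log2 fold changes of -3.25 to -1.31 at Atp6v1h and -2.80 to -0.77 at Acot5. The call at Atp6v1h was lost without either 2i replicate, and that at Acot5 without serum replicate 1 or 2i replicate 2. At 2310036O22Rik, the serum values of 8.71 and 9.53 rested on an inferred 5 and 10 reads, against 20.7 and 30.3 in 2i. Under cyclic loess normalization neither Acot5 nor 2310036O22Rik was called, at -0.93 and -0.71. The call at 2310036O22Rik was also lost with a pseudocount of 8, at -0.95, and without either 2i replicate.

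The remaining 3 peaks had higher values. Brms1l, a component of the SIN3-HDAC corepressor complex, had 17.4 and 17.2 in serum and 42.0 and 80.3 in 2i, and Eea1, a tethering protein of early endosomes, had 13.9 and 18.1 against 52.1 and 43.8. Lonrf1, which encodes a RING finger protein, was the only strong one of the 6, with 87.1 and 178 in serum against 304 and 398 in 2i at chr8:37311443-37312611. Its log2 fold change was -1.47 (limma adjusted p = 0.06, SE 0.33), the smallest adjusted p among the downstream peaks called higher in 2i. With a replicate block it passed (limma adjusted p = 4.3e-05). Its serum replicates were 2-fold apart, yet both lay below both 2i values. Without serum replicate 1 the log2 fold change was -0.96 and no longer a call, and that of Brms1l and of Eea1 was no call without 2i replicate 2 and without 2i replicate 1, at -1.23 and -1.41.

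The strongest downstream peaks differed little between the media, or differed toward serum. Anp32b, which encodes a histone chaperone, had the highest mean of all 711, with 1340 and 1207 in serum and 789 and 905 in 2i, at chr4:46463655-46465490. The lower serum value was above the higher 2i value, but the log2 fold change of 0.59 was not called and was 0.02 under cyclic loess normalization. Rcc2, a regulator of chromosome condensation, had 718 and 679 against 528 and 708. Kcmf1, a ubiquitin ligase gene, had 528 and 854 against 549 and 599. At both, the conditions overlapped and the small positive log2 fold changes, 0.19 and 0.23, turned negative under cyclic loess normalization. The interval at Anp32b held 1 E2F word, in the first intron, which is shown because it lies in the strongest peak. The word is in capitals, on the gene's strand in mm9.
Anp32b, 403 bp from the start, chr4:46464342-46464461, plus strand: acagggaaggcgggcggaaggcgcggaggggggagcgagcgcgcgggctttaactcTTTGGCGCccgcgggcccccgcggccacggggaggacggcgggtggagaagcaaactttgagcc

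The fixed gene lists cover pathways that bear on E2F1 and on the difference between the media. For the E2F and RB pathway, 2 of 32 genes had a downstream peak and 13 peaks lay within 200 bp of a start. E2f2, an activator of the same family as E2F1, had 61.0 and 53.4 in serum and 25.2 and 19.8 in 2i at a peak in the 5′UTR, 360 bp from the start, and was called higher in serum with a log2 fold change of 1.31 (limma adjusted p = 0.121). Cdkn2c, which encodes the inhibitor p18 of CDK4 and CDK6, had 20.9 and 21.0 against 44.2 and 37.6, a log2 fold change of -0.93 that was under the threshold. With the same total in each sample it was -1.02 and a call toward 2i, where 6.92% of all peaks were called in that direction. Of 39 DNA replication genes, 0 had a downstream peak and 4 peaks lay at a start.

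Of 29 genes that ERK signaling induces, or that feed back on it, 5 had a downstream peak. With limma, 3 were called toward serum and 0 toward 2i, where 4.82% and 5.48% of all peaks were, and their median log2 fold change was 1.02 against -0.03 over all peaks. Beside Dusp5, the called genes were Mcl1 and Srf. Mcl1, which encodes an anti-apoptotic BCL2 family protein, had 915 and 950 in serum and 362 and 465 in 2i, with a log2 fold change of 1.18 (limma adjusted p = 0.0761). Under cyclic loess normalization it was 0.76. Srf, the serum response factor that activates immediate early genes, had 202 and 150 against 76.1 and 94.9 at a peak in the 5′UTR. Its log2 fold change of 1.02 fell to 0.93 with the same total and to 0.97 under cyclic loess normalization or with a pseudocount of 8, which end the call, as did leaving out serum replicate 1 (0.81) or 2i replicate 1 (0.87). The list thus kept 1 call, Dusp5, under cyclic loess normalization. Spry1, an inhibitor of receptor tyrosine kinase signaling, had 78.4 and 102 against 54.9 and 55.3. Ier5, an immediate early gene, had lower values in serum, 17.4 and 16.2 against 30.8 and 30.3. At 4 of the 5 both serum values were above both 2i values, as at 24.9% of all peaks, and at Ier5 the order was reversed. The 7 peaks of this list at starts had a median of 0.69, with 2 called toward serum and 1 toward 2i.

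Of 25 pluripotency and germ layer factors, 6 had a downstream peak, against 4 peaks within 200 bp of a start, the only one of the lists described here with more peaks downstream than at the start. Sox2, a core pluripotency factor with a single exon, had 693 and 819 in serum and 251 and 482 in 2i at a peak that also covered the start. It was called higher in serum, with a log2 fold change of 1.11 (limma adjusted p = 0.126). The call was lost under cyclic loess normalization, at 0.75, without serum replicate 2, at 0.99, and without 2i replicate 1, at 0.64. Lin28b, an inhibitor of let-7 maturation, had 174 and 213 against 108 and 86.6, and its log2 fold change of 0.99 lay just under the threshold. With any 1 replicate left out it ran from 0.83 to 1.14, on both sides of the threshold. Klf2 and Klf5, Krüppel-like factors of the naive state, had overlapping values, at Klf2 761 and 472 in serum against 481 and 772 in 2i, and at Klf5 404 and 158 against 175 and 164. Fgf4, the ligand that drives ERK signaling in ESCs, had 139 and 127 against 115 and 137, and Dnmt3a, a de novo DNA methyltransferase, had 155 and 141 against 165 and 121. So 1 of the 6 was called, against 4.82% of all peaks toward serum, and at 2 of them the replicates of the conditions did not overlap, as at 24.9% of all peaks with serum higher and 24.4% with 2i higher.

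Among 26 chromatin genes, 5 had a downstream peak and 15 peaks lay at starts. Trim28, the corepressor of KRAB zinc finger proteins, had 1002 and 830 in serum and 402 and 629 in 2i at a strong peak in the 5′UTR, and its log2 fold change of 0.86 was not called. Sirt1, a deacetylase, had 699 and 519 against 403 and 500. Kdm5b, an H3K4 demethylase, had 338 and 201 against 223 and 249, and Ezh1, a Polycomb methyltransferase, had 19.2 and 29.5 against 16.2 and 34.4. Setd1b was thus the 1 call toward serum in this list of 5, where 4.82% of all peaks were called, and without 2i replicate 2 the list had 2 calls.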

How the data were processed

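E2F1 ChIP-seq was measured in 2 serum and 2 2i samples. Per the methods and the submitters' processing notes, reads were mapped by the authors with BWA to the mm9 genome. Duplicates and ENCODE blacklist regions were discarded, MACS2 peaks of the replicates were intersected, both conditions were merged, and bedtools counted reads per region. The authors deposited 1 signal value per peak and sample, and 99.95% of the 18092 values were whole multiples, within 0.05, of what 1 read is worth in that sample. Peaks found in a single replicate are absent. Whether deposited starts count from 0 or 1 is not given in the sources used here. Whether the replicates were separate cultures is not described beyond their label as biological.

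Peaks were placed by their centre on GENCODE M1 (NCBIM37). limma 3.58.1 in R 4.3.3, with eBayes and a variance trend, tested log2(value + 1) over all peaks without a block, after checks on simulated data. The pseudocount understates changes of weak peaks. Confidence intervals reflect counting error alone. Placement and figures used Python 3.11.15, pysam 0.24.0 and matplotlib 3.10.9.

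The named peaks were the 6 called with the largest change in each direction without overlap of replicates, those past adjustment, the 5 strongest, those at genes of 5 lists (a further list is not reported here), the 3 with the most E2F words and those at the limits of the rule. The members and lists were chosen with earlier results of these data known. Alternatives concerned the pseudocount, scaling, a minimum signal, the variance trend, the replicate block, single replicates, the choice of starts, the limits and the motif window.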

Additional observations from a re-analysis of the deposited data

How the results depend on the processing

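The alternatives were chosen with earlier results of these data known, and 3 were added after the values were seen, namely leaving out the histone genes, keeping only the 433 downstream peaks whose interval ends before the start, and the comparison within 4 equal groups by signal. The planned edgeR and DESeq2 tests on recovered reads were not run, because the deposited unit is a scaled signal. With 2 samples per condition and 41 to 119 reads at the median downstream peak, small differences at single peaks could not be resolved. The cause of the shifts below was not tested, except that a changed limit or filter changes which peaks are counted.

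Over the downstream class as a whole, calls toward serum outnumbered those toward 2i under each setting run, with 28 to 83 against 7 to 69, but by a varying margin. Within the weakest of the 4 signal groups, 9 were called toward serum and 11 toward 2i. With a pseudocount of 8, 10 downstream peaks and 126 peaks at starts were called toward 2i. With a minimum mean of 50, 7 downstream peaks were called toward 2i, and 58 and 53 peaks at starts toward serum and 2i. The median log2 fold change of downstream peaks was then 0.164 and the ratio of median signals 1.16. With the same total in each sample, that median turned to -0.00631, and cyclic loess left 12 calls toward 2i. Without a variance trend 0 downstream peaks passed adjustment. The ratio of median signals was 0.994 per kb of peak length.

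With 1 start per gene, 1166 peaks counted as downstream, with 44 calls toward 2i, a median of 0.016, a difference from the starts of 0.092 and a core share of 31.1%. With a limit of 100 bp there were 1509 peaks, 83 and 69 calls, 28 after adjustment, 67 calls toward serum at starts and a median of 0.0226. With a limit of 300 bp there were 350 peaks, 28 and 14 calls, 8 after adjustment, a median of 0.0286 and a difference of 0.101. Without peaks that cover a start or share a gene with a peak there, 395 remained, with 30 calls toward serum, 10 after adjustment, a median of -0.00759, a difference of 0.0653 and a ratio of 0.725. For the 433 that end before the start, these were 35 calls, 11, 0.00696, 0.0798 and 0.733. An E2F word was found at 5.20% of downstream peaks within 400 bp windows and at 6.47% within the whole interval, and the core at 44.9% and 55.3%.

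When single replicates were omitted, the downstream calls ran from 50 to 62 toward serum, from 9 to 53 toward 2i and from 0 to 6 after adjustment. At starts they ran from 100 to 139 and from 97 to 292. The median log2 fold change of downstream peaks ran from 0.0323 to 0.133, its difference from the starts from 0.0883 to 0.207 and the ratio of median signals from 1.07 to 1.11.

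The replicate numbers pair the samples by number only. The deviations of same-numbered samples had a correlation of 0.0483 across peaks. With a replicate block, 52 downstream peaks were called toward serum and 30 toward 2i, against 226 and 278 of all 4523 peaks. After adjustment 43 and 10 passed, 53 in all, against 152 and 119 of all peaks.

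Under cyclic loess, the log2 fold change turned to -0.245 at Rcc2, -0.193 at Kcmf1, -0.042 at Kdm5b, -0.0101 at Dnmt3a and 0.236 at Chst2. With the same total it turned to -0.0253 at Dnmt3a, -0.0045 at Fgf4 and -0.0799 at Ezh1, and with a pseudocount of 8 to -0.00574 at Ezh1. None of these peaks was called. Leaving out single replicates gave ranges that crossed 0 at 9 peaks that were not called, from -0.0212 to 0.40 at Rcc2, -0.12 to 0.57 at Kcmf1, -0.37 to 0.32 at Klf2, -0.23 to 0.52 at Kdm5b, -0.10 to 1.25 at Klf5, -0.16 to 0.29 at Dnmt3a, -0.0395 to 0.21 at Fgf4, -0.51 to 0.53 at Ezh1 and -0.90 to 0.42 at Chst2.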
